A study of Solanum lycopersicum with 24 samples.

Results

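Leaf RNA of drought-tolerant and drought-susceptible tomato plants (Solanum lycopersicum) was compared after 7 days without water. The comparison rested on 6 of the 24 arrays of the study, 3 of droughted tolerant plants and 3 of droughted susceptible plants, which were taken by their titles. All plants were at the flowering stage, and the labels name each genotype only by its response to drought. Watered plants of both genotypes, tolerant and susceptible with 3 arrays each, show which differences were also present without drought. The labels do not say whether replicate arrays came from separate plants, and the p-values cover the spread of these arrays alone. A single pair of genotypes was compared, so tolerance and any other difference between the genotypes cannot be told apart.

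A leaf that dries out closes its stomata, largely through the hormone abscisic acid, and accumulates protective proteins and solutes. Photosynthesis then falls behind the light that is absorbed, and reactive oxygen species form that catalase, peroxidases and superoxide dismutases remove. Defence proteins governed by salicylic acid, jasmonate and ethylene often move with drought as well, because these hormones share signals with abscisic acid.

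The array held 10209 probe sets. The 108 control and spike-in probe sets and the 63 probe sets for reporter genes that tomato does not carry were set aside, which left 10038 for testing. Levels below are log2 signals, differences are tolerant minus susceptible on the log2 scale, and a probe set is called at an adjusted p under 0.05 (limma with Benjamini-Hochberg adjustment over the 10038 probe sets). A gene name was found for 459 probe sets, which made 411 genes with 1 probe set each. These names come from the authors' lists of genes whose drought or heat response differed between genotypes, so named genes were selected in part on these same samples.

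The array measures of quality differed between the genotypes. Replicate arrays correlated at 0.919 to 0.941 in droughted tolerant plants, against 0.998 in droughted susceptible plants. The median SD of a probe set over 3 arrays was 0.391 in droughted tolerant plants and 0.0741 in droughted susceptible plants. The bacterial spike-in bioB averaged 11.44 ± 0.15 in droughted tolerant plants and 5.97 ± 0.79 in droughted susceptible plants (SD, n = 3 each). The excess of 3′ over 5′ signal in the actin, GAPDH and EF-1 alpha control probe sets, which grows as RNA degrades, was 1.75 ± 0.14 in droughted tolerant plants and 0.65 ± 0.04 in droughted susceptible plants (SD, n = 3 each). Since each array held a single genotype and these measures moved with genotype, array processing and genotype cannot be told apart. The limma fit pooled its spread over 4 groups of unequal spread, so its p-values for the droughted comparison are too small. Counts with a weight per group are therefore given as well.

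In droughted plants 6809 of 10038 probe sets were called, or 67.8% of those tested. Of these, 3909 (38.9% of those tested) were higher and 2900 (28.9%) lower in tolerant plants. With a weight per group 6382 were called, 3674 higher and 2708 lower, and 6209 were called in the same direction by both fits. The difference was at least 1 for 4627 of the 6809. Arrays of the groups did not overlap for 7529 probe sets (75%), of which those higher in tolerant plants made 42.6% and those lower 32.4% of the probe sets tested. Among the named genes 343 of 411 (83.5%) were called, 159 (38.7%) higher and 184 (44.8%) lower, and 328 of the 343 kept their call with a weight per group. The gene lists below hold only named genes, so their counts are to be read beside these shares.

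Reporter signal, a measure of background, was higher in tolerant plants. Of the 63 reporters 44 were called higher and 0 lower in droughted plants (limma, reporters kept among the tested probe sets), with a median difference of 1.17. Among the dimmest 25% of probe sets 1427 calls were higher and 201 lower, whereas among the brightest 25% they were 836 and 1038. For 1222 of the 3909 higher calls, and 124 of the 2900 lower calls, the signal gave no difference above background. A difference is given below as a bound ("at least", "or lower") where 2 or more of the 3 arrays of the dimmer group did not exceed the 95th percentile of the reporters.

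**Figure D1:**
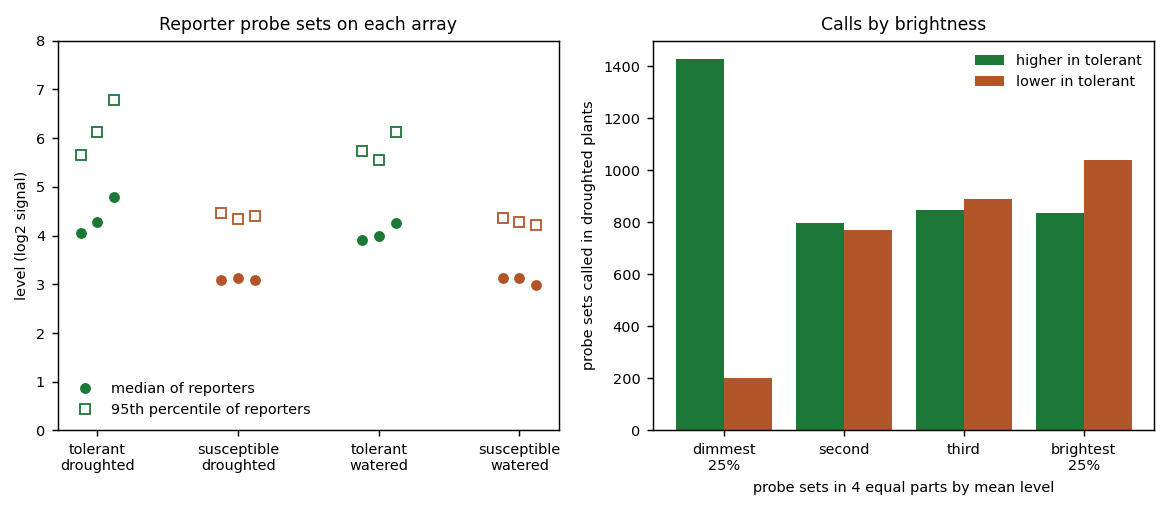
Left, median (filled circles) and 95th percentile (open squares) of the 63 reporter probe sets on each array, as log2 signal, in tolerant (green) and susceptible (orange) plants. Right, number of probe sets called higher (green) or lower (orange) in droughted tolerant plants, in 4 equal parts by mean level. Reporter medians average 4.38 in droughted tolerant and 3.10 in droughted susceptible plants, and the dimmest 25% hold 1427 higher and 201 lower calls.

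Probe sets also differed by a part of their identifier. Of the 2374 carrying A1, with which the array maker marks the orientation of the source sequence, 1355 were called higher and 435 lower, with a median difference of 0.89. Above background these calls were 766 higher and 423 lower. Of the 7664 carrying S, 2554 were called higher and 2465 lower, with a median difference of 0.02, and above background the calls were 1921 higher and 2353 lower. The genes below that were read from an A1 probe set are ASR1, IAA10, RCE1, Psy1, TGAS118, LeAP1, MPK3, VDE, GAL83 and ca3.

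The defence proteins of the leaf were mostly lower in droughted tolerant plants. Of 16 pathogenesis-related (PR) proteins, secreted proteins that accumulate on infection, 10 were lower, 1 was higher and 5 were not called. Their median difference was -1.16, against 0.20 over all tested probe sets and -0.25 over the 411 named genes. With values raised to the 95th percentile of the reporters 9 were lower and 4 higher, with a median of -0.77. That floor averaged 6.19 in droughted tolerant and 4.40 in droughted susceptible plants. A gene at background in both therefore reads higher in tolerant plants, and 3 of the 16 had no value above background. In watered plants, where 34.8% of all probe sets were called higher and 23.8% lower, the list had 11 higher and 2 lower and a median of 2.35. The change of the genotype difference between watered and droughted plants was called for 12 of the 16, all toward lower in droughted tolerant plants. Over all probe sets 18.4% were called in that direction and 19% in the other. Among the 411 named genes, which were selected in part on these same samples, 155 were called in that direction and 142 in the other.

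PR1b1, a PR-1 protein used as a marker of salicylic acid signalling, had levels of 4.94, 3.38 and 2.73 in droughted tolerant plants, against 10.77, 10.78 and 10.77 in droughted susceptible plants. The groups did not overlap, and the tolerant arrays lay at background, so the difference was -4.58 or lower (adjusted p = 9.09e-06). In watered plants PR1b1 averaged 10.85 in tolerant and 4.77 in susceptible plants. P4, another PR-1 protein, read 4.18, 5.02 and 3.76 in droughted tolerant plants, against 8.86, 8.86 and 9.12 in droughted susceptible plants. It too was lower in droughted tolerant plants (difference -2.75 or lower, adjusted p = 2.32e-07) and higher in watered tolerant plants.

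Chitinases and glucanases, which break down fungal cell walls, were lower by smaller amounts. CHI3 averaged 12.18 ± 0.01 in droughted tolerant and 13.43 ± 0.08 in droughted susceptible plants (SD, n = 3 each), and the glucanase GluB averaged 9.45 ± 0.25 and 10.85 ± 0.06 in these groups (SD, n = 3 each). Both were higher in watered tolerant plants, by 3.50 for CHI3 and 2.43 for GluB. CHI17 was lower in tolerant plants under both conditions, by -1.74 in droughted and -1.84 in watered plants. The osmotin NP24-I, a thaumatin-like PR-5 protein, was lower by -1.08, while PR-5 was the single member called higher, at 2.04 or more. PR-P2, a PR-4 protein, was lower by -4.23 on the probe set with the smallest p, but its other probe sets gave 0.47 and -0.20.

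Secreted proteases of the defence response followed PR-1. The papain-like protease pip1, a target of inhibitors secreted by Phytophthora, read 7.28, 6.46 and 5.30 in droughted tolerant plants, against 11.22, 11.21 and 11.23 in droughted susceptible plants. Its difference was -4.88 (adjusted p = 1.15e-05), and in watered plants it was 3.40. P69B, a protease of the subtilisin family, had a difference of -1.78 or lower in droughted plants and was higher in watered tolerant plants. Over all 11 proteases 8 were lower and 3 higher in droughted tolerant plants.

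Enzymes that attach hydroxycinnamic acids to tyramine, whose products strengthen the cell wall at wounds, were near background in droughted tolerant plants. THT7-1 read 5.09, 4.13 and 3.63 in droughted tolerant plants, against 10.34, 10.45 and 10.44 in droughted susceptible plants (difference -4.22 or lower, adjusted p = 7.11e-08). THT1-3 differed by -5.02 or lower and THT7-8 by -4.24 or lower. All 3 transferases were also lower in watered tolerant plants. Of the 8 genes listed as tyramine transferases and phenylpropanoid enzymes 6 were lower and 1 was higher. The higher one was chalcone synthase CHS2, the entry enzyme of flavonoids, at 2.67 in droughted and 2.11 in watered plants.

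**Figure D2:**
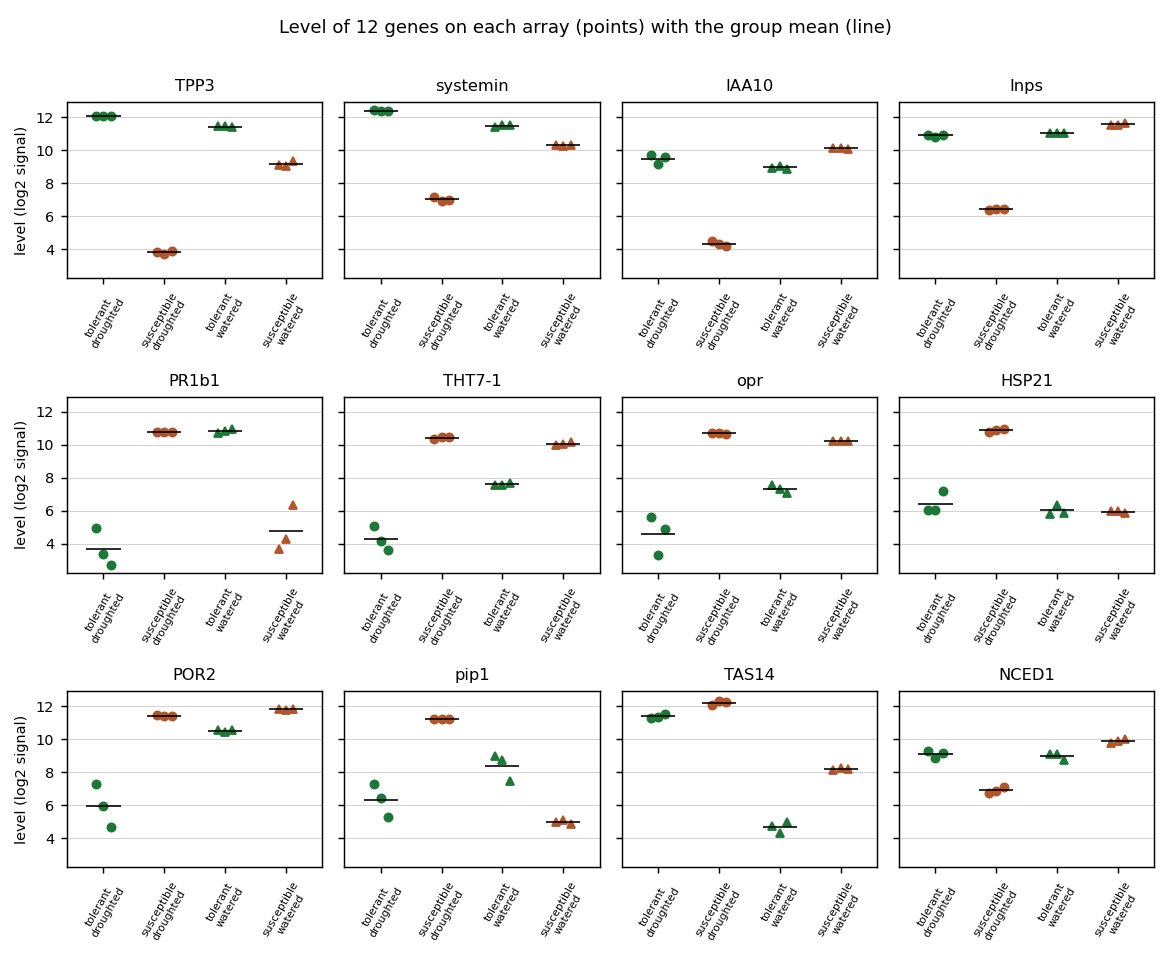
Level (log2 signal) of 12 genes on each of the 12 arrays, in tolerant (green) and susceptible (orange) plants, droughted (circles) and watered (triangles), with the group mean as a line. In droughted plants TPP3, systemin, IAA10, Inps and NCED1 were higher in tolerant plants and the other 7 were lower, and no gene's droughted groups overlap.

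Jasmonate and wound genes were split, with 9 of 23 higher, 8 lower and 6 not called. For 2 of the called ones there was no value above background. The precursor of systemin, the peptide signal that spreads a wound response, was among the higher ones. Systemin read 12.43, 12.37 and 12.38 in droughted tolerant plants, against 7.16, 6.92 and 6.97 in droughted susceptible plants (difference 5.38, adjusted p = 1.81e-10). Its second probe set gave 4.49, and in watered plants the difference was 1.20. The wound-inducible proteinase inhibitor I gene LOC543954, which blocks digestive enzymes of insects, was higher by at least 4.16 on one probe set, whereas its other probe set gave 0.26 and was not called. Threonine deaminase Td and leucine aminopeptidase lap2, both wound-induced, were higher by 1.25 and 1.22.

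Among the 8 lower members was the 12-oxophytodienoate reductase opr, from a family that includes an enzyme of jasmonate synthesis. It read 5.61, 3.29 and 4.90 in droughted tolerant plants, against 10.73, 10.71 and 10.66 in droughted susceptible plants, a difference of -4.51 or lower (adjusted p = 1.64e-06). The lipoxygenase loxD differed by -1.36 and the hydroperoxide lyase HPL, which diverts the same substrate into leaf aldehydes, by -2.34. HPL was not called in watered plants, where its difference was 0.03, and the change between conditions was called.

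Of 21 ethylene genes 11 were lower and 6 higher in droughted tolerant plants, with no value above background for 1 of the called ones. The ACC synthase ACS6 differed by -4.03 and the ACC oxidase ACO1 by -2.74. These enzymes carry out the last steps of ethylene synthesis. The response factor PTI5 differed by -3.50 or lower and the coactivator ER24 by -2.20 or lower. The receptors Never-ripe and ETR4, which hold the pathway off until ethylene binds, were higher, by 1.97 and 1.56. ACS6, PTI5 and ER24 were also lower in watered tolerant plants, whereas ACO1 was higher there, by 0.53.

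Abscisic acid and dehydration genes did not differ one way in droughted plants. Of 7 genes 3 were higher and 3 lower, and the median was -0.14, a sign that turned with repeated quantile normalization (0.03). The 3 higher ones include ASR1, whose direction was not settled, as given below. In watered plants 2 were higher and 4 lower. The interaction was called higher for 5 and lower for 0, against 142 higher and 155 lower of the 411 named genes. NCED1, the rate-limiting enzyme of abscisic acid synthesis, read 9.27, 8.88 and 9.19 in droughted tolerant plants, against 6.77, 6.85 and 7.08 in droughted susceptible plants (difference 2.21, adjusted p = 8.33e-07). In watered plants it was lower in tolerant plants, by -0.92. LeAREB, a bZIP factor that binds abscisic acid response elements, was higher by 2.26.

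The dehydrin TAS14, which accumulates as cells lose water, was bright in both droughted genotypes. It read 11.31, 11.37 and 11.55 in droughted tolerant plants, against 12.11, 12.30 and 12.26 in droughted susceptible plants (difference -0.81, adjusted p = 0.00143). In watered plants the gap was -2.40 or lower, with tolerant plants at background. The late-embryogenesis-like protein ER5 showed the same order, at -1.39 in droughted and -4.09 in watered plants, and the dehydration-responsive factor DREB1 differed by -0.94 in droughted plants. ASR1, a small hydrophilic protein induced by water loss and ripening, gave 6.34 on its A1 probe set and -2.04 on its other probe set. Its direction was therefore not settled.

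Genes of the photosynthetic apparatus were lower in droughted tolerant plants. The list of light-harvesting and electron transport genes had 11 members, 9 lower and 2 higher, with a median of -1.29. In watered plants 8 were already lower and 2 higher, with a median of -0.49. The chlorophyll-making enzyme POR2 read 7.31, 5.93 and 4.67 in droughted tolerant plants, against 11.50, 11.42 and 11.42 in droughted susceptible plants (difference -4.71 or lower, adjusted p = 6.43e-06). Chlorophyll-binding proteins CAB6A and CAB4 differed by -3.17 and -1.22, the second probe set of CAB6A by -0.51, and PsbQ of the water-splitting complex by -1.67. The interaction was called lower for 8 of the 11 and higher for 2, against 155 lower and 142 higher of the 411 named genes. With a weight per group it was called lower for 7 and higher for 1, and CAB4 lost this call. CAB4, a mesophyll marker, averaged 10.99 in droughted tolerant and 12.21 in droughted susceptible plants, above the 95th percentile of the reporters on every array. CAB6A, also a mesophyll marker, averaged 9.33 in droughted tolerant and 12.51 in droughted susceptible plants on its leading probe set. Neither marker can tell leaf from other green tissue.

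The plastid gene psbF, a subunit of cytochrome b559 in photosystem II, went the other way. It averaged 10.54 ± 0.30 in droughted tolerant and 5.46 ± 0.07 in droughted susceptible plants (SD, n = 3 each), a difference of 5.08, and its other probe set was also called higher. Ferredoxin SEND33, the other higher member, differed by 0.40 and was not called with a weight per group (limma, adjusted p = 0.0963). Carbonic anhydrase ca2, which supplies CO2 for fixation, was higher by 2.51 and was called higher on all 4 of its probe sets, 1 of them with no value above background, whereas ca3 was lower by -4.40 in droughted and higher by 2.19 in watered tolerant plants.

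Antioxidant enzymes were mostly lower. Of 15 genes 11 were lower, 3 higher and 1 not called, with a median of -1.30, against 3 higher and 3 lower in watered plants. The interaction was called lower for 12 of them and higher for 2, against 155 lower and 142 higher of the 411 named genes. The iron superoxide dismutase FESOD of the plastid averaged 8.61 ± 0.28 in droughted tolerant and 11.27 ± 0.04 in droughted susceptible plants (SD, n = 3 each), and the catalase cat1 averaged 12.53 ± 0.06 and 13.83 ± 0.12 in these groups (SD, n = 3 each). GSH1, the first enzyme of glutathione synthesis, differed by -1.86. The dehydroascorbate reductase DHAR1 (1.28) and the glutathione transferase BI-GST/GPX (1.59) were higher. Ascorbate peroxidase APX1, counted above among the lower genes, was not settled, since its 2 probe sets gave -1.70 and 2.69.

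All 5 small heat shock proteins, which hold unfolding proteins in solution, were lower in droughted tolerant plants, with a median of -3.38. That median rests in part on signal at background, and it was -2.15 with values raised to the 95th percentile of the reporters. The plastid HSP21 read 6.04, 6.04 and 7.17 in droughted tolerant plants, against 10.79, 10.90 and 10.98 in droughted susceptible plants (difference -4.47, adjusted p = 4.32e-07). In watered plants 3 of the 5 were already lower and 0 higher, with a median of -1.28, while HSP21 itself was not called, at 0.08. The interaction was called lower for 3 and higher for 1, against 155 lower and 142 higher of the 411 named genes. The mitochondrial LEMTSHP differed by -2.15 or lower and the cytosolic HSP17.4 by -0.87. Of 10 large chaperones 6 were lower and 2 higher, among them the cytosolic LeHsp90-1 at -2.46, the plastid chaperonin leCpn21 at -2.75 and the lumenal BiP/grp78 at 0.66.

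Nitrogen and sugar enzymes differed in several places. Of 19 amino acid and polyamine genes 13 were lower and 3 higher, with a median of -1.42. For 2 of the called ones there was no value above background. Arginine decarboxylase ADC, the entry to polyamines, differed by -3.19, glutamate dehydrogenase legdh1 by -2.83 and asparagine synthetase AS1 by -2.72. The GABA shunt enzymes LeGAD2 and GABA-TP1 differed by -1.64 and -1.42. Histidine decarboxylase hdc and the carrier LeAAP3 were higher, by 2.11 and 1.76.

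The inositol phosphate synthase Inps, which makes the precursor of osmoprotective sugars such as the raffinose family, read 10.95, 10.80 and 10.95 in droughted tolerant plants, against 6.37, 6.45 and 6.43 in droughted susceptible plants (difference 4.49, adjusted p = 3.15e-10). In watered plants Inps was lower in tolerant plants, by -0.55. Of 16 sugar and starch genes 6 were higher and 7 lower, with no value above background for 1 of the called ones. SNF4 and GAL83, subunits of the energy-sensing SNF1 kinase complex, were higher by 3.82 and 1.90. The hexose carrier HT2 and the vacuolar invertase Aiv-1 differed by -4.27 and -2.54.

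Of 12 auxin genes 7 were higher and 4 lower in droughted tolerant plants, with no value above background for 2 of the called ones. In watered plants 1 was higher and 7 lower. The interaction was called higher for 8 and lower for 2, against 142 higher and 155 lower of the 411 named genes. IAA10, a repressor of auxin response, read 9.69, 9.15 and 9.56 in droughted tolerant plants, against 4.47, 4.30 and 4.20 in droughted susceptible plants. The gap was 5.06 or more (adjusted p = 3.03e-09), and both of its probe sets were called higher. In watered plants IAA10 differed by -1.16. IAA7 and IAA1 turned in the same way, at 3.08 and 1.32 in droughted and -0.76 and -1.15 in watered plants. The auxin response factor ARF2 differed by -1.61.

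Of 7 gibberellin and brassinosteroid genes 3 were higher, 3 lower and 1 not called. The biosynthetic 20ox-1 was higher by at least 2.98 and LeGAI, a DELLA-type repressor, by 3.99, and both were also higher in watered tolerant plants. Among the lower ones, the GRAS-family regulator GRAS1 differed by -3.18 in droughted and -3.24 in watered plants. Dwarf, an oxidase of brassinosteroid synthesis, differed by -1.77 or lower, and by -0.36 on its other probe set. Whether the gap of 20ox-1 and LeGAI differed between conditions depended on the fit, since the interaction was called with pooled spread and not with a weight per group.

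Of 36 cell wall genes 17 were higher and 14 lower (13 and 14 with repeated quantile normalization), with no value above background for 4 of the called ones. XTH7, which cuts and rejoins xyloglucan, was higher by at least 4.01, the expansin LeEXP2, which loosens walls, by at least 3.11, and the endoglucanase Cel1 by at least 3.23. Cel1 was lower in watered tolerant plants, by -2.18. Another xyloglucan enzyme, tXET-B2, differed by -3.72, the galactosidases TBG1 and TBG3 by -3.75 and -3.95, and the pectin methylesterase PMEU1 by -2.05.

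Of 13 histone and cell cycle genes 9 were higher and 1 lower, with a median of 1.27. But 3 of the called genes had no value above background, and with repeated quantile normalization 3 were higher and 1 lower. In watered plants 8 were already higher and 2 lower, with a median of 0.92. The interaction was called higher for 4 and lower for 0, against 142 higher and 155 lower of the 411 named genes. Histone H2B-2 averaged 9.45 ± 0.47 in droughted tolerant and 5.68 ± 0.21 in droughted susceptible plants (SD, n = 3 each). The replication clamp pcna differed by 1.77, the dUTPase P18 by 1.28 and the H1-like histone LOC544142 by -0.58. Cyclin CycA1 (1.34) was not called with repeated quantile normalization.

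**Figure D3:**
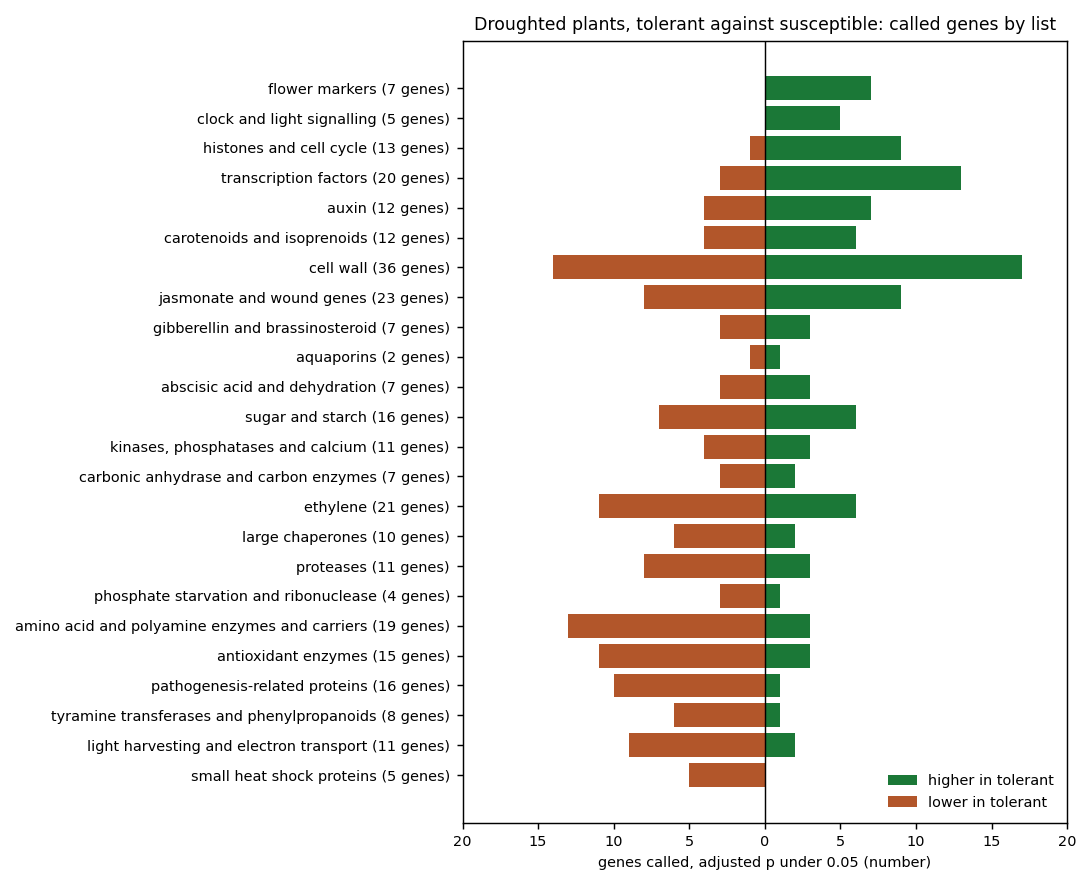
Number of genes called higher (green, right) and lower (orange, left) in droughted tolerant plants at an adjusted p under 0.05, for 24 gene lists, with the size of each list in brackets. Lists run by the balance of calls, and flower markers (7 higher, 0 lower) and small heat shock proteins (0 higher, 5 lower) stand at the ends.

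Flower genes were higher in these leaf samples of droughted tolerant plants. All 7 flower markers were called higher, with a median of 2.65, but 1 had no value above background. Only 3 of the 7 lay outside the dimmest 25% of probe sets, and those 3 were called higher. Over all probe sets, the dimmest 25% held 1427 higher and 201 lower calls. With repeated quantile normalization all 7 markers were called higher, with a median of 1.91. TPP3, a flower-specific thionin-like protein, read 12.07, 12.05 and 12.08 in droughted tolerant plants, against 3.82, 3.67 and 3.89 in droughted susceptible plants. The gap was 7.66 or more (adjusted p = 4.62e-11), the largest named difference, and in watered plants it was higher by 2.28. The MADS-box factors LOC543555, an APETALA3 homologue, and TDR3, which specify flower organs, were higher by at least 3.06 and by 2.65. Watered tolerant plants were called higher for 6 of the 7 and lower for 1. Leaf and flower bud tissue in the samples was not measured apart, and in bulk samples more cells of a type and more RNA per cell cannot be told apart.

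Of 20 transcription factors 13 were higher and 3 lower, with no value above background for 2 of the called ones. LeT6, a knotted-like factor of meristems and compound leaves, was higher by at least 3.04, and the leaf-shape regulators lanceolate and LOC543604, a phantastica homologue, by 3.21 and 3.17. THM27, a MYB factor, differed by -2.99. The list of clock and light signalling had 5 members, and each was called higher, among them the flowering regulator CO1 at 2.64 and its partner CIP2b at 1.29, and the blue-light receptors CRY1A and Cry1b at 0.91 and 0.69.

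Among carotenoid and isoprenoid genes 6 of 12 were higher and 4 lower. The phytoene synthases Psy1 and PSY2, which open the pathway, were higher by at least 3.25 and by 2.39. The hydroxylase CrtR-b2 was higher by 2.56 in droughted and lower by -1.86 in watered tolerant plants. The isomerase IPI differed by -2.24. VDE, which protects leaves from excess light, was higher by at least 2.09 on its A1 probe set, while its S probe set gave 0.11 and was not called.

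Further large differences lay outside the lists or in small ones. The calmodulin CALM1LE was lower on all 3 of its probe sets (difference -4.28 or lower on the leading one), and the ribonuclease rnale, induced by phosphate starvation, differed by -3.89 or lower. Both were not called in watered plants. The phosphate-starvation gene TPSI1 was higher by 3.55. The aquaporin-like LOC778315 read 6.55, 7.14 and 7.23 in droughted tolerant plants, against 11.30, 11.41 and 11.46 in droughted susceptible plants (difference -4.42). Of the 2 aquaporin genes listed 1 was lower and 1 higher. The mitochondrial ADP/ATP carrier LOC544050 differed by -5.42 and the silencing regulator LOC543942 by -4.32. RCE1, a conjugating enzyme of the RUB1 pathway, gave 4.85 on its A1 probe set and -0.13 on the other, and the kinase MPK3 gave 2.63 on its A1 probe set against -0.37 on both others. The kinase MAPK10 was higher by 2.19.

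Much of the difference between the arrays of the genotypes was present without drought. The quality measures differed in watered plants too, where 31 of 63 reporters were called higher in tolerant plants and 0 lower. There bioB averaged 10.84 in tolerant and 5.75 in susceptible plants, and the excess of 3′ over 5′ signal 2.87 and 1.25. The part of these measures in the calls shared by both conditions was not tested. In watered plants 5882 probe sets were called, or 58.6%, and 6299 (62.8%) with a weight per group. Of the 5882, 3940 were called in the same direction in droughted plants, which is 57.9% of the droughted calls and 67% of the watered calls. A further 621 were called in opposite directions, 292 higher and 329 lower in droughted tolerant plants. The change of the genotype difference between conditions was called for 3760 probe sets (37.5%), 1908 higher and 1852 lower. With a weight per group it was called for 3389. The droughted and watered comparisons share no array, whereas the change between conditions uses the arrays of both.

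Genes with like differences in both conditions included ER21, a heat shock cognate, at -3.97 in droughted and -3.50 in watered plants. TGAS118, a thionin, differed by 3.13 in droughted and 3.40 in watered plants. The interaction was not called for either. Genes with opposite differences included PR1b1, P4, pip1, PR-P2 and ca3, all lower in droughted and higher in watered tolerant plants, and IAA10, Inps, Cel1, IAA7 and CrtR-b2, which ran the other way.

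**Figure D4:**
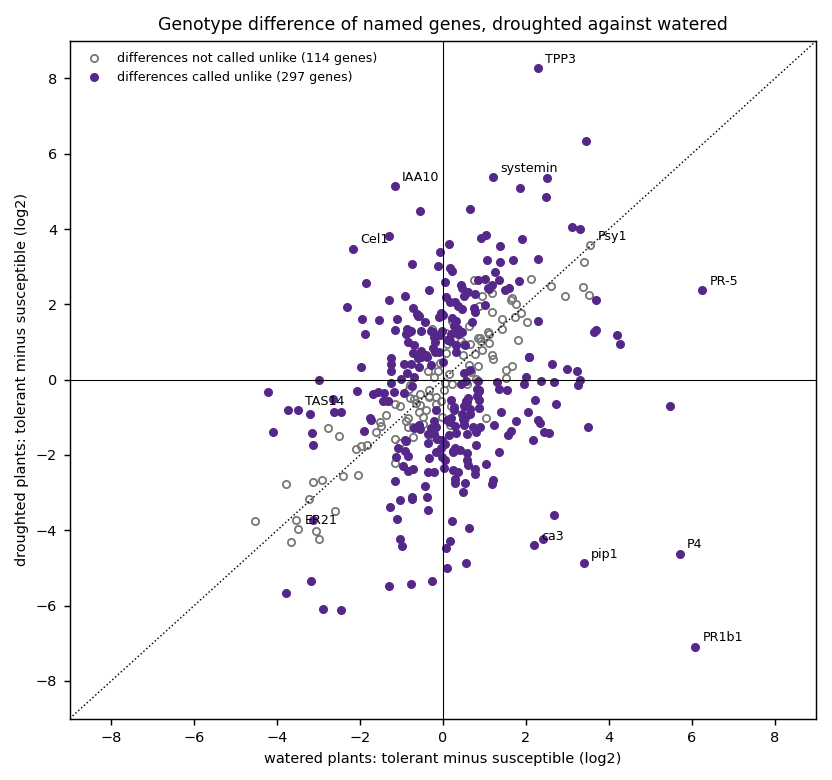
Genotype difference (tolerant minus susceptible, log2) of the 411 named genes in droughted plants (vertical) against watered plants (horizontal), with the line of equal differences dotted. Filled points are genes whose difference changed between conditions at an adjusted p under 0.05, as fitted and without bounds. PR1b1, P4 and pip1 lie at the lower right and IAA10 and Cel1 at the upper left.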

How the data were processed

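Leaf RNA on Affymetrix tomato arrays was analysed for 12 drought-experiment arrays. The authors deposited log2 signals for each probe set; per the submitters' processing notes the software was Affymetrix Expression Console, with RMA 1.0. The authors' deposited tables of linear fold changes (ratio) supplied gene names only. Of their folds 96.8% had the sign of the value table's mean differences.

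With limma 3.58.1 (R 4.3.3), 4 group means were fitted to each of 10038 probe sets, without further normalization, with contrasts in droughted plants, in watered plants and between these. When tested on simulated data the fit met its error rate with equal spread, but with the unequal spread of these groups its droughted comparison called more unchanged probe sets than its adjusted p states. A weight per group (arrayWeights) removed this excess where spread was scaled by group, and only part of it where spread varied by probe set and group. Calls of small differences are therefore less certain than their p-values state.

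Genes were named from 1 probe set (smallest p): the 15 largest increases and decreases without overlap of arrays, list members, and 5 genes per direction with like or opposite watered differences. A bound was computed by raising values to their array's 95th percentile of reporters, if 2 or 3 arrays of the dimmer group did not exceed it. No value was given where the brighter group lay there too or the bound turned the sign. Members and lists were chosen with earlier results of these data known. Arrays of the same replicate number showed no clear shared deviation (correlations of deviations between -0.128 and 0.116). Such values cannot show whether samples were paired. No 2 arrays were identical. The number of arrays limits the precision.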

Additional observations from a re-analysis of the deposited data

Results flagged for a closer look

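The genotype difference had opposite signs in droughted and watered plants for 10 named genes, each with a called interaction (limma, adjusted p below the 0.05 threshold). As droughted minus watered difference it was -10.43 or lower for PR1b1, -7.34 or lower for P4, -8.28 for pip1, -6.65 for PR-P2 and -6.59 for ca3. It was 6.23 or higher for IAA10, 5.41 or higher for Cel1, 5.04 for Inps, 4.42 for CrtR-b2 and 3.84 for IAA7. PR-P2 rests on 1 of its 3 probe sets, and ca3 and the leading probe set of IAA10 carry A1.

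Signal outside the tomato probe sets also differed between genotypes. Reporter probe sets were called higher in droughted tolerant plants for 44 of 63, and the spike-in bioB averaged 11.44 in droughted tolerant and 5.97 in droughted susceptible plants. Its part in the gene differences was not tested.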

How the results depend on the processing

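The 6809 calls in droughted plants ranged from 4627 to 7679 under the alternatives. Without the dimmest 25% of probe sets 2522 were higher and 2727 lower, so the split turned to fewer higher than lower calls, because fewer dim probe sets were tested. A log2 difference of at least 1 left 1907 lower calls and 2304 calls shared with watered plants, and the RNA integrity covariate left 2382 shared calls; for the covariate the cause was not tested. Raising values to the 95th percentile of the reporters gave 4982 higher and 2697 lower calls. That floor lay higher in tolerant plants, so probe sets at background in both genotypes read higher in tolerant plants under it. Leaving out 1 array at a time gave 6031 to 7040 calls. The replicate block gave 6723 calls, with numbers that showed no clear shared deviation, and it changed no call of a gene discussed. Of 131 genes discussed 122 kept direction and call under all alternatives that hold them, and none reversed. Each gene kept the same probe set throughout, so a reversal on another probe set could not appear here. Of 40 named genes with several probe sets, 8 were called both higher and lower in droughted plants. For 21 of the 40, all probe sets were called in 1 direction. SEND33 lost its call with either kind of array weight, CycA1 with repeated quantile normalization, and HSP17.4, BiP/grp78, TAS14, DREB1, LOC544142, CRY1A, Cry1b and SEND33 differed by less than 1. No gene list's higher or lower count in droughted plants moved by more than 2 genes with a weight per group. The median difference of all probe sets moved with scaling, at 0.20 as deposited, 0.07 after repeated quantile normalization and 0.31 after centring arrays on their medians. The interaction was not refitted on 6 arrays, since it needs all 12.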
